A study of Homo sapiens with 16 samples.

Results

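The late phase of the estradiol response in Ishikawa cells was taken as the change between 2 h and the 4 h and 8 h time points, that is, what was gained or lost after the first 2 h of hormone. Ishikawa is a human endometrial adenocarcinoma line. The members were chosen by their time labels: 4 libraries at 4 h and 8 h formed 1 late group and were set against the 2 libraries at 2 h, which makes 6 of the 16 bulk RNA-seq libraries of the series. The remaining Ishikawa libraries, 2 at 0 h, were vehicle treated by the methods of the study. They entered the fit and are given as the level before hormone. T-47D, a human breast carcinoma line sampled in the same way, provided 8 libraries for comparison. All groups had been kept in hormone-depleted medium (phenol red-free RPMI-1640 with charcoal-stripped serum) for 3 days by the sample records before treatment, and the late and 2 h groups then received 10 nM 17β-estradiol (E2). No time-matched vehicle libraries were used here, so time in culture and time with hormone cannot be told apart. Each line stands for 1 tumour of origin, and the labels do not say whether replicates were separate cultures, so p-values measure only the spread between these libraries, which may be technical.

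E2 acts through estrogen receptor α (ESR1), a ligand-activated transcription factor that binds DNA at estrogen response elements, mostly in enhancers, and recruits coactivators within minutes. Genes bound directly can respond before any new protein is made, while later changes can also pass through proteins made in the first wave. In the endometrial epithelium, E2 is known as the proliferative hormone of the cycle, and it induces the progesterone receptor, growth factors and alkaline phosphatases.

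Library totals ranged from 41177912 to 58918642 counts in Ishikawa cells and from 41223813 to 64148903 in T-47D. The spread within groups of the Ishikawa fit, given by edgeR as a biological coefficient of variation, was 6.36%. It takes in differences between 4 h and 8 h, which form 1 group there. The 6 epithelial markers examined (EPCAM, CDH1, KRT8, KRT18, KRT19 and CLDN4) were all above 1 CPM, with a summed level of 3088 to 3130.4 CPM at 2 h and 2761 to 3025 CPM late, and 0 of them were called. All 5 leukocyte markers stayed between 0 and 1.15 CPM. Of the stromal and endothelial markers, COL1A1, COL3A1 and VWF were the ones above 2 CPM in every library, with DCN, LUM, PECAM1 and CDH5 at or near 0. COL1A1 was the marker of these classes that was called, at 217 and 234 CPM at 2 h and 153 to 204 late. CPM here means counts scaled to a fixed library total, after TMM normalization of library sizes.

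The 4 late libraries did not group clearly by their time labels. The libraries labelled 4 h replicate 1 and 8 h replicate 2 were the farthest from the 2 h libraries, with a root mean square difference in log2 CPM of 0.41 to 0.44, and the libraries labelled 4 h replicate 2 and 8 h replicate 1 were nearer to them, at 0.34 to 0.36. The latter pair differed from each other by 0.33 and the former pair by 0.36, while the 4 h replicates differed by 0.39 and the 8 h replicates by 0.35. When 8 h was compared with 4 h as labelled, 2 genes passed an adjusted p of 0.05 in edgeR's quasi-likelihood test against 554 at an unadjusted p under 0.05, and DESeq2 gave 2 and 384. The labels were kept as given.

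After the first 2 h, 764 of the 15787 genes tested changed at a Benjamini-Hochberg adjusted p under 0.05 in edgeR's quasi-likelihood test, or 4.84%. Of these, 354 genes (2.24%) rose and 410 (2.6%) fell. Most changes were small: the median size was 0.31 on the log2 scale for rising genes and 0.40 for falling genes, against 0.10 over all genes tested, and 31 rising and 20 falling genes moved by more than 1. All 764 had their 4 late libraries beyond both 2 h libraries, as did 5152 of all genes tested (32.6%), with 16.2% of all genes above and 16.4% below. For orientation, the 2 h libraries differed from those at 0 h in 708 genes (4.48%) and the late ones from 0 h in 4055 (25.7%) by the same test, comparisons that share libraries with the one described here. The number of calls rested heavily on both 2 h libraries, since it was 187 without 2 h replicate 1 and 131 without 2 h replicate 2, and it was 491 without 4 h replicate 1 and 438 without 8 h replicate 2. Of these 4 smaller sets, 182, 130, 482 and 430 genes were among the 764, all of them in the same direction.

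**Figure D1:**
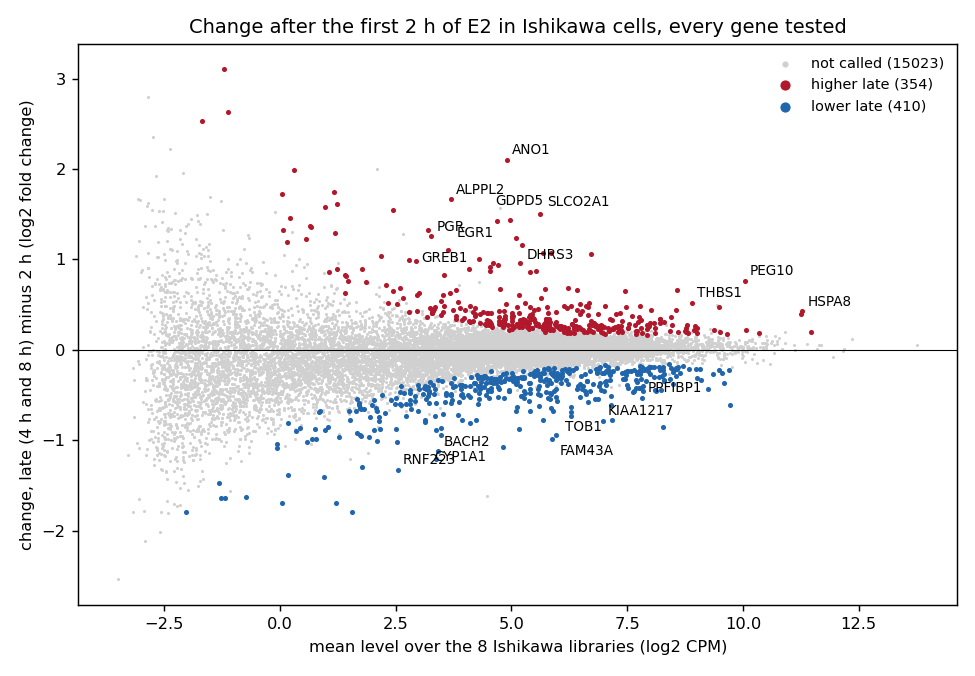
Each point is 1 of the 15787 genes tested in Ishikawa cells, with its mean level over the 8 libraries on the x axis (log2 CPM) and its change from 2 h to the late group on the y axis (log2 fold change). The 354 genes called higher are red and the 410 called lower are blue; ANO1 lies highest among the labelled genes at 2.11 and RNF223 lowest at -1.32.

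The largest gain among genes with a mean of at least 50 counts was ANO1, which encodes a calcium-activated chloride channel and lies on chromosome 11 of GRCh37 (chr11:69832013-70035636). Its level was 5.78 and 6.03 CPM before hormone and 12.3 and 11.3 after 2 h, and the late libraries held 63.9 and 37.1 CPM (4 h) and 35.8 and 66.0 CPM (8 h). All 4 late libraries lay above both 2 h libraries, and within the late group the libraries labelled 4 h replicate 1 and 8 h replicate 2 were the high ones. The log2 fold change late against 2 h was 2.11 (standard error 0.22, edgeR adjusted p = 3.17e-05).

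SLCO2A1, a prostaglandin transporter (chr3:133651545-133771028), followed the same order of libraries. It went from 27.6 and 26.1 CPM at 2 h to 89.4 and 64.0 CPM in the 4 h and 58.8 and 93.2 CPM in the 8 h libraries, and its log2 fold change was 1.51 (standard error 0.16). C3orf36, which GENCODE lists as a long noncoding RNA on the same strand directly after the end of SLCO2A1, went from 0.590 and 0.476 CPM at 2 h to between 1.48 and 2.81 CPM late, and reads that run past the end of SLCO2A1 cannot be told apart from its own transcript. GDPD5, a glycerophosphodiesterase, rose from 17.3 and 18.7 CPM to between 39.5 and 57.8 CPM. The other leading gains were at lower levels, with MLPH (a melanosome transport adaptor), PIPOX (pipecolic acid oxidase), MUC5B (a secreted mucin), IQSEC3 (an exchange factor for ARF GTPases) and ROBO2 (a SLIT receptor) reaching at most 4.70 CPM in a late library, with log2 fold changes of 1.46 to 1.75. PIPOX overlaps PHF12 on the opposite strand. The calls of C3orf36 and MLPH were lost without 2 h replicate 2, and those of PIPOX, IQSEC3 and ROBO2 without either 2 h library.

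The genes with the lowest p among the gains were EGR1, DHRS3, TBC1D16, SLC6A12 and THBS1. DHRS3, a retinaldehyde reductase that limits retinoic acid, went from 3.19 and 3.52 CPM at 0 h to 29.4 and 28.5 at 2 h, and rose again to 59.7 and 53.5 CPM in the 4 h libraries and 53.7 and 58.7 CPM in those at 8 h. SLC6A12, a betaine and GABA transporter, followed a similar course at a lower level, from 2.56 and 2.81 CPM at 0 h through 5.53 and 5.76 at 2 h to between 12.99 and 15.5 late. THBS1, the matrix glycoprotein thrombospondin 1, had already gone from 85.7 and 86.3 CPM at 0 h to 466 and 471 at 2 h, and then rose to between 657 and 715 CPM, a log2 fold change late against 2 h of 0.52 (standard error 0.047). THBS1 overlaps FSIP1 on the opposite strand. For DHRS3 and THBS1 the step in the first 2 h, at 3.11 and 2.45 on the log2 scale, had the larger value; these steps share the 2 h libraries.

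**Figure D2:**
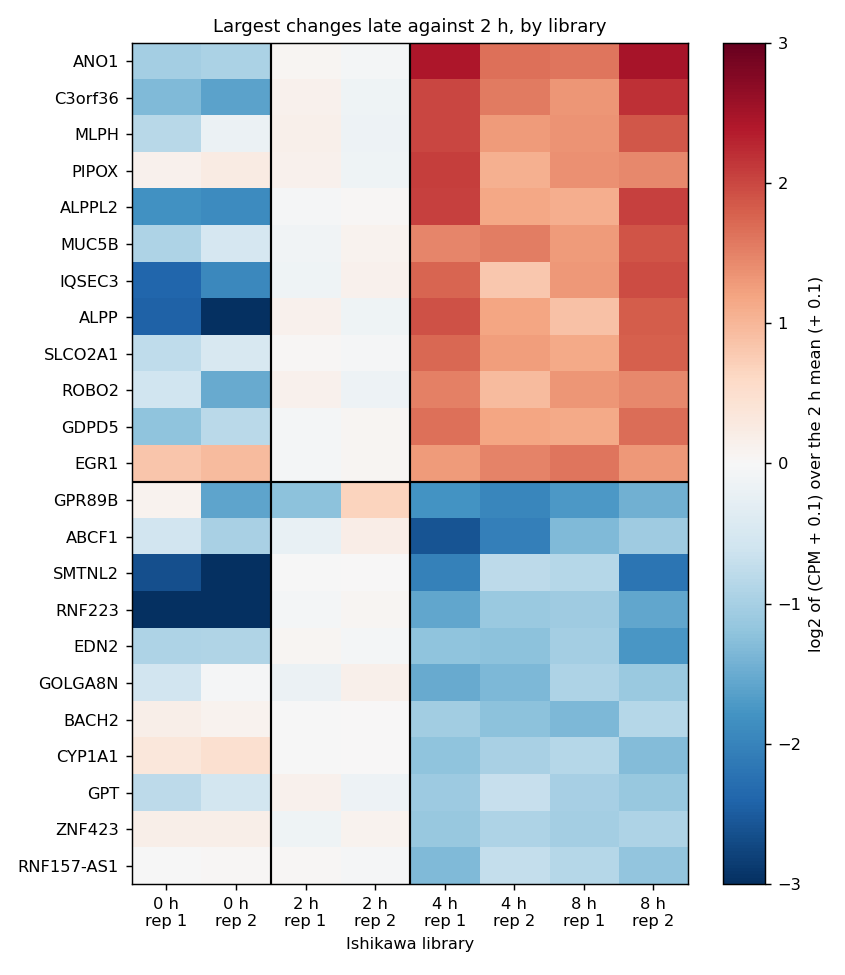
Columns are the 8 Ishikawa libraries and rows the genes with the largest rise (upper) and fall (lower) late against 2 h; color is log2 of CPM plus 0.1 over the 2 h mean plus 0.1. The upper rows are red in all 4 late libraries and deepest for ANO1 in the libraries labelled 4 h replicate 1 and 8 h replicate 2, and the 2 h libraries differ visibly from each other for GPR89B.

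3 of the gains belong to 1 gene family. ALPP (placental type), ALPPL2 (germ cell type) and ALPI (intestinal type) encode alkaline phosphatases, lie side by side on chromosome 2, and alkaline phosphatase activity is a long-used readout of E2 in Ishikawa cells. ALPPL2 had 1.87 and 1.76 CPM at 0 h, with 6.64 and 6.91 at 2 h, after which the 4 h libraries held 28.2 and 15.4 CPM and the 8 h libraries 14.6 and 28.3 CPM. ALPP had 0.4995 and 0.258 CPM before hormone, 3.4004 and 2.85 at 2 h, then 12.1 and 7.24 with 4 h and 5.87 and 11.3 with 8 h of E2. For ALPI the levels were 0 and 0.0429 CPM at 0 h, 0.779 and 1.26 at 2 h and 2.28 to 2.85 late. All 3 genes were higher at 2 h than at 0 h and higher again late in every library, and their log2 fold changes late against 2 h were 1.67 (standard error 0.24), 1.54 (0.26) and 1.36 (0.25), in the same order. The ALPP call was lost without 2 h replicate 2. The family shares long stretches of sequence, so reads of one member could be counted for another.

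The 250 bases before the start of each of the 3 genes in RefSeq are shown because the 3 genes moved together, with the longest run of bases that all 3 share in capitals. They are ALPP at chr2:232378501-232378750, ALPPL2 (ALPG in RefSeq) at chr2:232406594-232406843 and ALPI at chr2:232455903-232456152, all on the plus strand of GRCh38.p14.
ALPP: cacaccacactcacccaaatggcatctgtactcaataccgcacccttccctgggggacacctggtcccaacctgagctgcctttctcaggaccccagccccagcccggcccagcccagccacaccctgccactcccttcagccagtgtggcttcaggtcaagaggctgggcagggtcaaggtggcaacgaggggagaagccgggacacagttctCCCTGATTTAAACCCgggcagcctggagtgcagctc
ALPPL2: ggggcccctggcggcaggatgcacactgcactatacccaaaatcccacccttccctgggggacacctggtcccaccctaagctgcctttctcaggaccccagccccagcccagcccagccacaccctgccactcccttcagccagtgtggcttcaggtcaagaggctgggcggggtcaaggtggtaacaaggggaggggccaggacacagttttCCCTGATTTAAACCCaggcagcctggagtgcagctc
ALPI: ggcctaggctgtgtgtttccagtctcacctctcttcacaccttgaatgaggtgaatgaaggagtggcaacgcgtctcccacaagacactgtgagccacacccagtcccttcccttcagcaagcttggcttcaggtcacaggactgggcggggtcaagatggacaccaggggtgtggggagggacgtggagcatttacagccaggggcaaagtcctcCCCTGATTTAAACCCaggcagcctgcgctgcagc

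The shared run is 15 bases long and begins 36 bases before the start of ALPP and ALPPL2 and 34 bases before that of ALPI. The promoters of ALPP and ALPPL2 were identical at 84.4% of aligned positions, and ALPI was identical to them at 59.8% and 59.2%. None of the 3 windows holds the full palindromic estrogen response element, searched as GGTCA, any 3 bases and TGACC, which was found on either strand in 3 of 17603 promoters of the genes tested, or 0.0170%.

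In a list of estrogen targets, 13 of the 35 tested rose after 2 h and 1 fell, where 2.24% and 2.6% of all genes did. The median log2 fold change was 0.21 over the list against -0.0031 over all genes tested. ALPP, ALPPL2 and ALPI, described above, belong to this list and are counted in it again. The list held study genes and targets chosen with these data known, so its count is not independent evidence of a direction. GREB1, an ESR1 coregulator and early E2 target, had 8.64 and 9.42 CPM at 0 h, with 13.5 and 14.4 at 2 h, and stood at 28.8 and 26.7 CPM in the 4 h libraries and 24.8 and 32.0 CPM in the 8 h libraries. PGR, the progesterone receptor, had 1.37 and 0.987 CPM at 0 h, 6.73 and 6.201 at 2 h and 13.5 to 18.4 late. CA12, a membrane carbonic anhydrase, was at 18.4 and 19.3 CPM at 2 h and 30.0 to 41.3 late. Their late groups lay wholly above the 2 h libraries, with log2 fold changes of 1.01 (standard error 0.10), 1.25 (0.13) and 0.96 (0.10).

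Other targets of the list moved less after 2 h. TGFA, a ligand of the EGF receptor, went from 158 and 159 CPM at 0 h to 510.0 and 496 at 2 h and was at 552 to 605 late, a log2 fold change late against 2 h of 0.18 (adjusted p = 0.0339). The TGFA call was lost in 6 of the alternatives tried, among them the removal of either 2 h library or either 8 h library. PEG10, an imprinted retrotransposon-derived gene that overlaps SGCE on the opposite strand, was at 811 and 799 CPM at 2 h, with 1624 and 1093 CPM in the 4 h and 1113 and 1645 CPM in the 8 h libraries, a change of 0.77 (standard error 0.13) whose call was lost without 2 h replicate 2. IL1RN, the interleukin-1 receptor antagonist, was between 0.306 and 0.601 CPM in all 8 libraries, and its adjusted p was 0.792. RARA, the retinoic acid receptor α, was the member that fell (-0.47), from 53.5 and 53.0 CPM at 2 h to 34.2 to 40.4 late, after 23.8 and 28.7 CPM at 0 h. Without 2 h replicate 1 the list held 8 rising genes, and without 2 h replicate 2 it held 5.

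**Figure D3:**
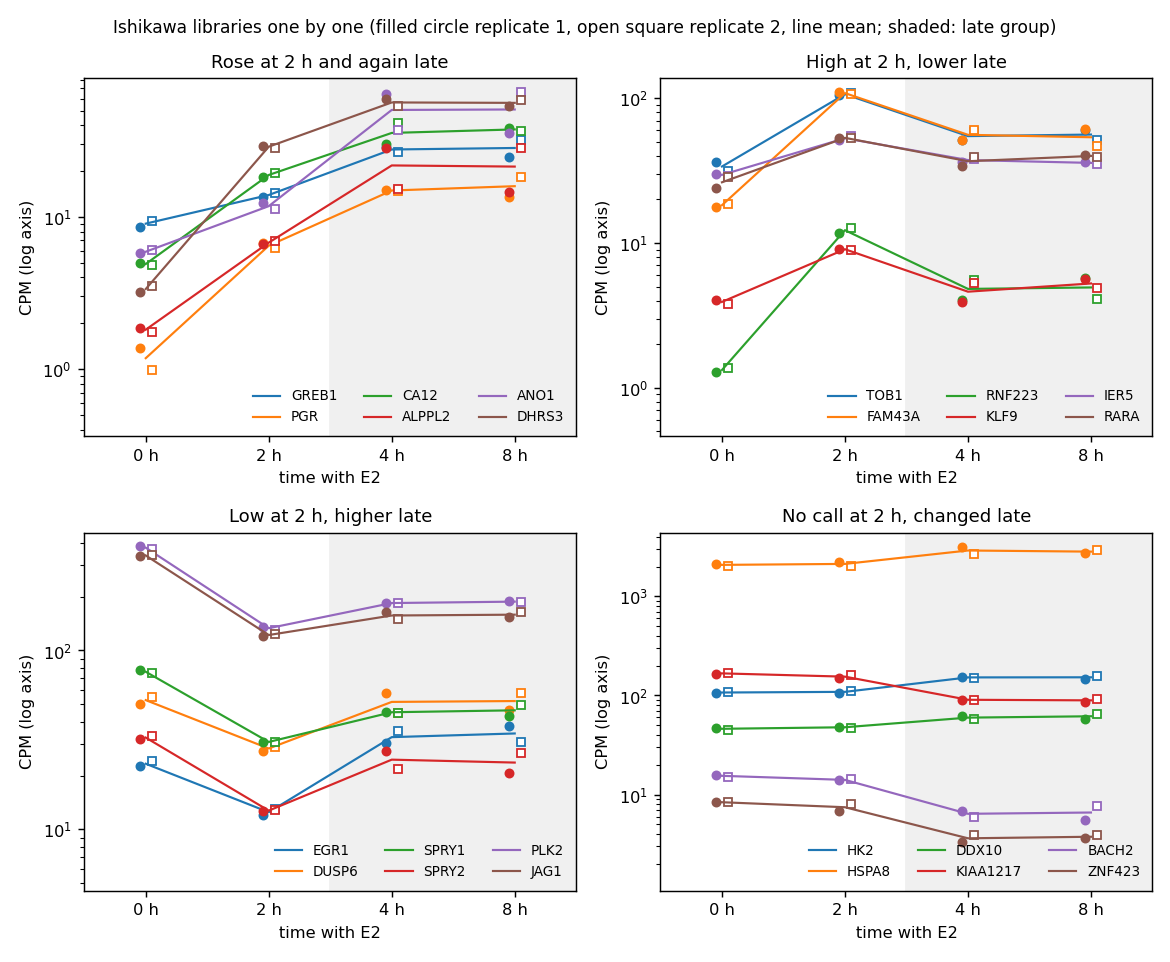
Each panel shows 6 Ishikawa genes by time with E2, with CPM on a log axis, a filled circle for replicate 1, an open square for replicate 2 and a line through the means; shading marks the late group. PGR and ALPPL2 climb in both intervals, TOB1 and FAM43A peak at 2 h with means of 107 and 108 CPM, EGR1 and SPRY2 dip to means of 12.5 and 12.7 CPM at 2 h, and HK2 steps up between 2 h and 4 h.

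Another set of genes was below its 0 h level at 2 h and regained it in part or in full. Immediate-early genes are transcription factors and other regulators induced within minutes of growth factor or stress signals, without new protein, and 9 of the 29 tested rose after 2 h while 4 fell (all genes, 2.24% and 2.6%), with a median log2 fold change of 0.18. EGR1, a zinc finger transcription factor and the gene with the lowest p among all gains, had 22.5 and 24.1 CPM before hormone and 11.996 and 12.97 after 2 h. Its 4 h libraries then held 30.3 and 35.3 CPM and its 8 h libraries 37.9 and 30.8 CPM. The log2 fold change late against 2 h was 1.43 (standard error 0.10, adjusted p = 9.52e-07), and the late level was also above that at 0 h, by 0.53. The libraries labelled 4 h replicate 1 and 8 h replicate 2, which were the highest for ANO1, were the lowest of the late group for EGR1.

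The 250 bases before the start of EGR1 (chr5:138465229-138465478, plus strand, GRCh38.p14) are shown with its serum response elements (CArG boxes) in capitals, since binding of serum response factor to such elements is the textbook route from MAP kinase signalling to this gene.
EGR1: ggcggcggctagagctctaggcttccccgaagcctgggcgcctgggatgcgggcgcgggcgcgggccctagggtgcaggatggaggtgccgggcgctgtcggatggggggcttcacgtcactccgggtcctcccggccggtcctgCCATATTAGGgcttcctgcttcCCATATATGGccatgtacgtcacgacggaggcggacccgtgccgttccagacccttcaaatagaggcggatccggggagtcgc

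The boxes begin 105 and 83 bases before the start. Such a box was found on either strand in 196 of the 17603 promoters of genes tested (1.11%), in 6 of 445 promoters of rising genes (1.35%), in 14 of 545 of falling genes (2.57%) and in 3 of the 27 of immediate-early genes.

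Other immediate-early genes that rose were MYC, PLK2, ATF3, CTGF, IER2, JUN, FOS and KLF6. PLK2, a polo-like kinase, was at 382 and 368 CPM at 0 h, 136 and 131 at 2 h and 184 to 189 late, so that it stayed below its 0 h level. ATF3, CTGF, IER2, JUN and KLF6 had the same order of group means, with log2 fold changes late against 2 h of 0.25 to 0.49 and late against 0 h of -0.79 to -0.22. MYC, a growth regulator, differed from them, at 116 and 119.6 CPM at 0 h, 131 and 131 at 2 h and 154 to 172 late. FOS, an AP-1 subunit, was rare, at 2.29 and 1.28 CPM at 2 h and 2.90 to 3.34 late. The members that fell were IER5, RHOB, ZFP36 and CYR61, which decreased by 0.53, 0.49, 0.40 and 0.21 on the log2 scale. IER5 had been higher at 2 h (51.2 and 54.5 CPM) than at 0 h (29.9 and 29.2 CPM) and was at 35.2 to 38.3 late.

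The MAP kinase feedback list held inhibitors of the pathway, and also the ligands AREG and HBEGF and the receptors EPHA2 and EPHA4. This list moved the same way, with a median of 0.33. Of the 20 members tested, 6 rose and 0 fell, where 2.24% and 2.6% of all genes did. DUSP6, a phosphatase of ERK, was at 50.5 and 55.1 CPM before hormone and 27.6 and 29.0 at 2 h, and came to 58.2 and 44.96 CPM in the 4 h libraries and 46.8 and 57.6 CPM in the 8 h ones. SPRY2, an inhibitor of receptor tyrosine kinase signalling, had 32.0 and 33.2 CPM at 0 h, 12.6 and 12.8 at 2 h and 20.7 to 27.4 late. The change late against 2 h was 0.87 (standard error 0.10) for DUSP6, 0.92 (0.11) for SPRY2, 0.57 (0.064) for SPRY1 and 0.47 (0.087) for the receptor tyrosine kinase EPHA2, whose call was lost without either 2 h library. DUSP6 was back near its 0 h level (late against 0 h -0.026, adjusted p = 0.868), whereas SPRY1 remained below it (late against 0 h -0.73). Without 2 h replicate 1 there were 5 rising immediate-early and 3 rising MAP kinase feedback genes, and without 2 h replicate 2 there were 2 and 3.

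Smaller groups of signalling genes included some with the same order of levels. Of 12 targets of BMP and TGF-β signalling (median 0.19), the ID proteins ID1, ID3 and ID4, which block bHLH transcription factors, rose by 0.27, 0.48 and 0.49, and TGFB2 and SKIL fell, against 2.24% higher and 2.6% lower over all genes. The ID1 call was lost without either 2 h library and the ID3 call without 2 h replicate 2. ID1 was at 288 and 271 CPM at 0 h, 157 and 158 at 2 h and 182 to 197 late. TGFB2, a TGF-β ligand, went down in both intervals, from 59.4 and 55.1 CPM at 0 h through 37.5 and 39.9 at 2 h to 25.7 to 28.6 late. SKIL, a repressor of SMAD activity, was at 219 and 191 CPM at 0 h, 383 and 403 at 2 h and 297 to 350.3 late. Of 21 Notch and WNT genes (median -0.058), the Notch ligand JAG1 rose (121 and 123 CPM at 2 h, 150.0 to 164 late, against 336 and 343 at 0 h), and the receptor NOTCH3 and the Notch feedback gene NRARP fell by 0.45 and 0.28. The NOTCH3 call was lost with the 4 h libraries alone and without either 2 h library, and the NRARP call in 8 of the alternatives tried, the replicate block among them.

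A further set was high at 2 h and came down afterwards. TOB1, an antiproliferative protein that recruits the CCR4-NOT deadenylase, had 36.1 and 31.4 CPM at 0 h, with 105 and 108 at 2 h, then 51.3 and 58.1 CPM in the 4 h libraries and 60.4 and 51.7 CPM in the 8 h libraries. Its log2 fold change late against 2 h was -0.94 (standard error 0.070, adjusted p = 1.82e-06), and it remained 0.72 above its 0 h level. TOB1 overlaps TOB1-AS1 on the opposite strand, and whether the counting used strand is not given in the sources used here. FAM43A, a gene of little-known function, had 17.8 and 18.7 CPM at 0 h, 109.6 and 107 at 2 h and 46.6 to 60.8 late. For RNF223, a RING finger protein, the values were 1.28 and 1.37 CPM at 0 h, 11.8 and 12.7 at 2 h and 4.07 to 5.76 late.

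Within the antiproliferative list, 5 of 24 genes fell after 2 h and 1 rose, where 2.6% and 2.24% of all genes did, with a median of -0.090 that ran from -0.11 to -0.053 when single libraries were left out. Besides TOB1, the members that fell were KLF9, TP53INP1, MXD4 and CDKN1C. KLF9, a Krüppel-like factor linked to progesterone action, was at 4.02 and 3.82 CPM at 0 h, 9.09 and 9.02 at 2 h and 3.92 to 5.60 late, a change of -0.87 (standard error 0.13). TP53INP1, a p53-induced stress gene, and MXD4, a MYC antagonist, were not called at 2 h against 0 h, and fell by 0.46 and 0.25. CDKN1C, the CDK inhibitor p57, was at 7.25 and 7.28 CPM at 2 h and 4.59 to 5.99 late. GADD45A, a growth arrest and DNA damage gene, was the member that rose (0.29). Without either 2 h library, 3 members fell and 0 rose, and the MXD4 call was lost.

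The largest losses were mostly of genes at low levels. Among the 12 with the largest fall, GPR89B had 2 h libraries at 2.13 and 8.19 CPM and late libraries at 1.26 to 1.85, so that its value of -1.79 rested on 2 h replicate 2, without which it was not called. GPR89B and GOLGA8N have near-identical copies in the genome, and ABCF1 lies in the MHC, which hg19 holds in several haplotypes, so the counts of these 3 genes are uncertain. EDN2, the peptide endothelin 2, and SMTNL2, a smoothelin-like protein, had log2 fold changes of -1.30 and -1.39 at levels of at most 6.12 CPM at 2 h. The SMTNL2 call was lost in 6 alternatives, among them the removal of either 2 h library. RNF157-AS1 overlaps RNF157 and FOXJ1, and its change of -1.01 cannot be told apart from changes in those genes. The call of ABCF1 was lost without 2 h replicate 2, and that of GPT, alanine aminotransferase, without either 2 h library.

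Better measured losses included genes that were not called at 2 h against 0 h. BACH2, a transcriptional repressor best known from lymphocytes, had 15.9 and 15.1 CPM at 0 h, with 13.9 and 14.3 at 2 h, and fell to 6.82 and 5.98 CPM in the 4 h libraries and 5.50 and 7.69 CPM in the 8 h libraries, a change of -1.12 (standard error 0.11). KIAA1217, the SKT adaptor protein, whose gene spans chr10:23983675-24836777 of GRCh37, had the lowest p of all losses. It had 164 and 170.0 CPM before hormone, 150.3 and 159.6 after 2 h and 86.2 to 92.4 late, a change of -0.79 (standard error 0.048, adjusted p = 4.37e-07). ZNF423, a zinc finger partner of SMAD and EBF factors, was at 6.85 and 8.07 CPM at 2 h and 3.35 to 3.90 late.

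CYP1A1, the cytochrome P450 induced by the aryl hydrocarbon receptor, fell in both intervals, with 43.2 and 47.9 CPM at 0 h, 33.7 and 34.6 at 2 h and 13.8 to 18.9 late, a change late against 2 h of -1.07 (standard error 0.10). PDGFB, a platelet-derived growth factor chain, and PPFIBP1, a liprin, also went down in each interval, with late against 2 h changes of -0.69 and -0.53. The estrogen receptor gene itself, ESR1, fell from 205 and 207 CPM at 2 h to 172 to 182 late, a change of -0.22 (edgeR adjusted p = 0.00928), and the gland transcription factor PAX8 fell from 259 and 256 CPM to 194 to 220.0 (-0.35). These were the 2 called genes among 6 markers of endometrial gland and estrogen response. The others, HOXB6 (-0.044), HOXA10 (0.11), SOX17 (0.17) and MSX1 (0.048), were not called and mostly had values above 0.

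A last set moved little or not at all by 2 h and rose afterwards. In the ribosome biogenesis list, made of processing and assembly factors of the nucleolus, 15 of 38 tested members rose and 0 fell, where 2.24% and 2.6% of all genes did, and 6 had been called higher at 2 h against 0 h. The median was 0.19, all 38 had a value above 0, and 33 had all late libraries above both 2 h libraries, against 16.2% of all genes tested. DKC1, the pseudouridine synthase, was at 151 and 153 CPM at 0 h, 173 and 169.7 at 2 h and 199.6 to 214 late, a change of 0.28 (standard error 0.047). The RNA helicase DDX10 and the assembly factors MRTO4 and BOP1 rose by 0.35, 0.30 and 0.42, and the calls of these 4 genes were lost without either 2 h library. These changes were small, and without either 2 h library 0 members passed, while 9 passed without 4 h replicate 1 and 8 without 8 h replicate 2.

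Chaperones of the heat shock response, which help proteins fold in the cytosol and mitochondria, gave 7 rising genes and 1 falling gene of 15 (all genes, 2.24% and 2.6%), with a median of 0.21. HSPA8, the constitutive HSP70 (chr11:122928197-122933938 of GRCh37), had 2129.7 and 2028 CPM at 0 h, with 2217 and 2035 at 2 h. It then reached 3113 and 2693 CPM in the 4 h libraries and 2724 and 2932 CPM in the 8 h libraries, a change of 0.43 (standard error 0.057). DNAJB1, DNAJA1, HSP90AB1, AHSA1, STIP1 and HSPD1 rose by 0.20 to 0.25. BAG3, a cochaperone, went the other way (-0.27), from 80.5 and 83.1 CPM at 0 h to 238 and 233 at 2 h and 189.9 to 199 late. DNAJB1 overlaps TECR on the opposite strand. The calls of DNAJB1, DNAJA1 and BAG3 were lost without either 2 h library. Without either 2 h library 1 member rose, and without 8 h replicate 2 there were 3.

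The 250 bases before the start of HSPA8 (chr11:123062137-123062386, minus strand, GRCh38.p14) are shown because they hold a pair of heat shock elements, the sites bound by heat shock factors, in capitals.
HSPA8: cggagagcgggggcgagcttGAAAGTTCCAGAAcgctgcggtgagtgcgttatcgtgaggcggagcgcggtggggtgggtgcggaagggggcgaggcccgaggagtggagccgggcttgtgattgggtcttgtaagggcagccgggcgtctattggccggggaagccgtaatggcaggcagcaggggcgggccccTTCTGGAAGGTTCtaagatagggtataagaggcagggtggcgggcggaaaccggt

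The element was searched on either strand as GAA, any 2 bases, TTC, any 2 bases and GAA, and begins 230 and 55 bases before the start. It was found in 5 of 23 promoters of the heat shock list (21.7%), those of HSPA8, HSP90AA1, HSP90AB1, HSPD1 and CHORDC1, against 0.335% of promoters of all genes tested. The list was made of heat shock genes, so a high share goes with membership. HSP90AA1 and CHORDC1 held the element and were not called higher, while DNAJB1, DNAJA1, AHSA1 and STIP1 rose without it. The whole set of rising genes held it in 4 of 445 promoters (0.899%), among them those of HSPA8, HSP90AB1 and HSPD1. A part of the element in the late change was not tested.

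Amino acid and glycolysis genes also included gains. Of 28 ATF4 targets and amino acid genes, 5 rose and 1 fell, against 2.24% and 2.6% over all genes, with a median of 0.11. SLC3A2 and SLC7A5, the chains of the LAT1 amino acid transporter, rose by 0.48 and 0.39, with SLC7A5 at 2225 and 2219 CPM at 2 h and 2660.5 to 3157 late. The stress genes SESN2, CHAC1 and TRIB3 rose by 0.26 to 0.36, and CEBPB, a bZIP factor that had been higher at 2 h than at 0 h, fell by 0.34. CEBPB overlaps CEBPB-AS1 on the opposite strand. Of 21 hypoxia and glycolysis genes (median 0.12), 3 rose, where 2.24% of all genes did: HK2, LDHA and BNIP3. HK2, hexokinase 2, had 107 and 108 CPM at 0 h, with 106 and 112 at 2 h, and 154 and 150.0 CPM (4 h) and 148 and 157 CPM (8 h) late, a change of 0.49 (standard error 0.049, adjusted p = 2.76e-05), whereas LDHA and BNIP3, with 0.26 and 0.37, lost their calls in 6 alternatives each. Without either 2 h library, 1 amino acid gene rose, and SLC3A2 and SESN2 were among those that lost their calls.

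**Figure D4:**
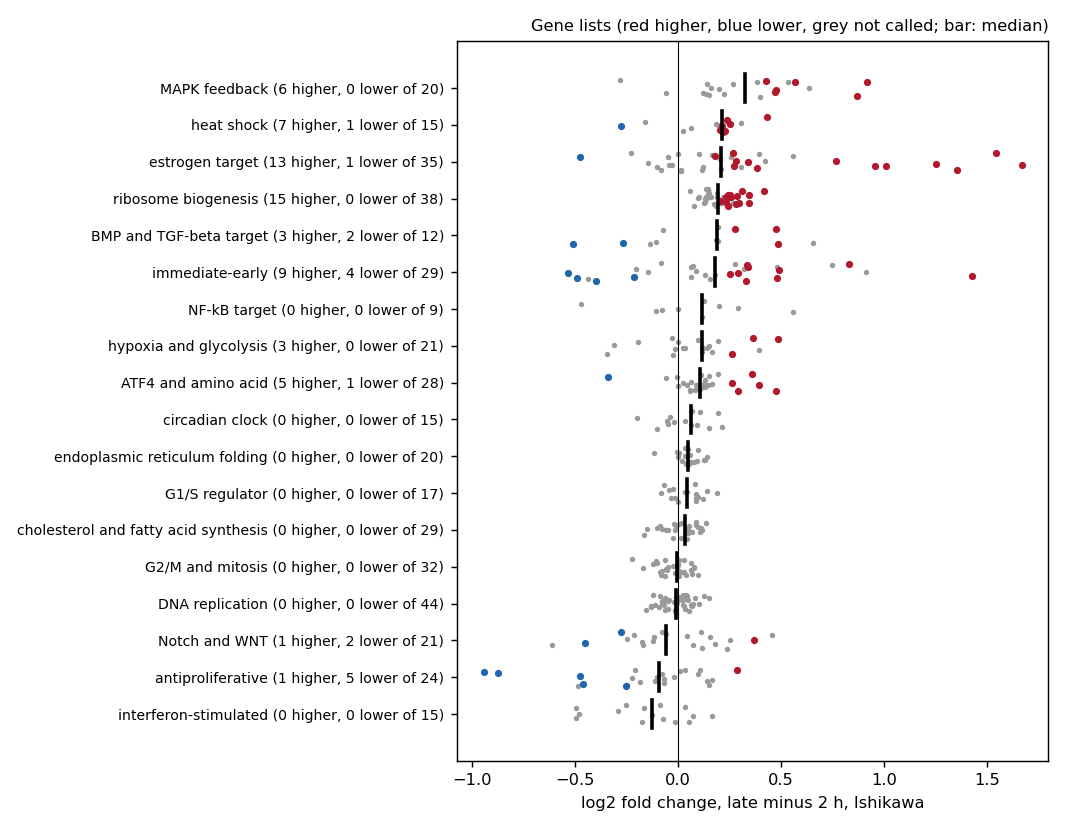
Points are the members of 18 gene lists by their log2 fold change late against 2 h in Ishikawa cells, red where called higher, blue where called lower and grey where not called; the vertical bar is the median of the list. Ribosome biogenesis genes all lie to the right of 0, and DNA replication and mitosis genes cluster around it.

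No list of cell cycle genes gained or lost a called member in the edgeR test, where 4.84% of all genes tested were called. At that share, lists of this size would hold few or no calls. CENPE, a member of the G2/M list with a change of -0.17, was called with no filter and without 8 h replicate 1. The DNA replication list had 0 of 44 members called, a median of -0.0067, and values between -0.15 and 0.15, with 1 member at an unadjusted p under 0.05 and 0 called by DESeq2. The G1/S regulators had 0 of 17 called with a median of 0.043 (2 and 0 by the unadjusted p and by DESeq2), and the G2/M and mitosis genes 0 of 32 with a median of -0.0026 (3 and 0). CCND1, cyclin D1, had a change of -0.084 (adjusted p = 0.351), and TOP2A, the mitotic topoisomerase, of -0.085 (adjusted p = 0.471), with 550.5 and 548 CPM at 2 h and 501 to 548 late.

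A further 5 lists likewise had 0 members called by edgeR after adjustment, where 4.84% of all genes tested were. These lists are given with the number tested, the median, and the members at an unadjusted p under 0.05 and called by DESeq2. They were cholesterol and fatty acid synthesis (29 tested, median 0.034, 4 and 1), endoplasmic reticulum folding (20 tested, median 0.050, 4 and 0), the circadian clock (15 tested, median 0.061, 2 and 1), NF-κB targets (9 tested, median 0.12, 1 and 0) and interferon-stimulated genes (15 tested, median -0.12, 2 and 0).

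Promoters of genes that rose held the palindromic E-box CACGTG, a site of MYC and related factors, in 51 of 445 cases (11.46%), those of genes that fell in 29 of 545 (5.32%), and those of all genes tested in 8.00%. The letters were searched on either strand in the 250 bases before each RefSeq start, and promoters of 1 gene overlap. The ribosome biogenesis list had 5.88%, below the share over all genes tested. The AP-1 site TGANTCA was found in 5.17% of promoters of rising and 6.42% of those of falling genes, against 4.54% over all genes tested. The median levels of rising and falling genes were 51.8 and 39.0 CPM against 22.4 CPM.

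The same interval was examined in T-47D cells, whose libraries share nothing with the Ishikawa ones. There 976 of 15594 genes were called (6.26%), 570 higher (3.66%) and 406 lower (2.6%). Of the 321 Ishikawa gains that were tested in T-47D, 88 (27.4%) were called higher there and 16 lower. Of the 374 Ishikawa losses, 70 (18.7%) were called lower and 8 higher. Over all 14307 genes tested in both lines, 3.79% were called higher and 2.61% lower in T-47D. The T-47D count also rested on its 2 h libraries, with 159 genes called without replicate 1 and 153 without replicate 2, and was 569 without 8 h replicate 2.

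Among the genes with like values in T-47D were PLK2, EGR1 and DUSP6. PLK2 changed by 0.48 in Ishikawa cells and 0.48 in T-47D, and the difference between lines was -0.015 (standard error 0.066, adjusted p = 0.991). EGR1 and DUSP6 had log2 fold changes of 1.16 and 0.88 in T-47D (edgeR adjusted p = 0.0164 and 0.00576), at levels of at most 1.35 and 4.64 CPM there. Their differences between lines of -0.29 (standard error 0.26) and -0.0013 did not pass the test. No standard error is given for DUSP6, since one computed from F is unstable for a difference this near 0. The immediate-early list as a whole did not repeat its Ishikawa values in T-47D. Of 28 members tested there, 3 were called higher and 3 lower (all genes, 3.66% and 2.6%), with a median of -0.030. Its members with a called difference between lines numbered 3, against 1.44% of all genes. ATF3 changed by -0.25 in T-47D and 0.49 in Ishikawa cells, a difference of -0.75 (standard error 0.12, edgeR adjusted p = 0.000928). In the ribosome biogenesis list 24 of 38 genes were called higher in T-47D, where 3.66% of all genes were, with a median of 0.23. Of its members 0 differed between lines, where 1.44% of all genes did, a share at which a list of this size would hold few or no calls. The heat shock list had 7 of 15 genes called higher in T-47D (median 0.17), and 1 member differed between lines. The ATF4 and amino acid list had 8 of 28 (0.12) with 2 differing, and MAP kinase feedback 3 of 20 (0.35) with 1. The hypoxia and glycolysis list had 0 of 21 called higher and 4 lower (all genes, 3.66% and 2.6%), with 4 differing.

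A difference between lines in the change itself, tested over all 16 libraries, was called for 246 of 17090 genes (1.44%), 105 with the higher change in T-47D (0.614%) and 141 with the lower (0.825%). Of the 12 leading Ishikawa gains, ANO1, MLPH, ALPP, SLCO2A1, ROBO2 and GDPD5 were among the latter. These gains were picked for a large Ishikawa change, which is subtracted in the difference, so the selection favours such calls. ALPP did not pass the filter in T-47D. ANO1 was at 21.1 to 23.9 CPM in all T-47D libraries from 0 h on, and its change differed by -2.19 (standard error 0.26, adjusted p = 4.44e-05). MLPH, which was rare in Ishikawa cells, was at 129.7 and 133 CPM at 2 h in T-47D and 119 to 149 late. SLCO2A1 and ROBO2 went down in T-47D, where they fell by 0.82 and 0.51, while they rose in Ishikawa cells, and DHRS3 fell by 0.91 in T-47D.

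The estrogen targets GREB1, PGR and CA12 moved less after 2 h in T-47D than in Ishikawa cells, while the list as a whole had a median of 0.28 in T-47D, with 14 of 37 genes called higher and 4 lower against 3.66% and 2.6% of all genes. Of its members 8 differed between lines, against 1.44% of all genes. GREB1 was at 388 and 413 CPM at 2 h in T-47D and 457 to 522 late, a change of 0.31 against 1.01 in Ishikawa cells, and the difference of -0.71 had a standard error of 0.11 and an adjusted p of 0.000832. PGR and CA12 had differences of -1.11 and -0.83. TOB1 fell by 0.16 in T-47D, at 383 and 385 CPM at 2 h and 325 to 355 late, and by 0.94 in Ishikawa cells, a difference of 0.77 (standard error 0.088). IER5 moved in opposite directions, with a change of 0.24 in T-47D and -0.53 in Ishikawa cells.

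The DNA replication list gave different counts in the lines, with 16 of 44 genes called higher in T-47D (median 0.25) and 0 in Ishikawa cells, where 3.66% and 2.24% of all genes were. However, 1 member had a called difference between lines (all genes, 1.44%), so the separate counts do not show that the lines differ in the other members. In T-47D, 3 of 16 G1/S regulators and 2 of 32 G2/M genes were called higher, the latter near the share of 3.66% over all genes. HK2, by contrast, differed by -0.45 (standard error 0.085, adjusted p = 0.00563), with 49.7 and 50.5 CPM at 2 h and 45.8 to 55.1 late in T-47D.

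**Figure D5:**
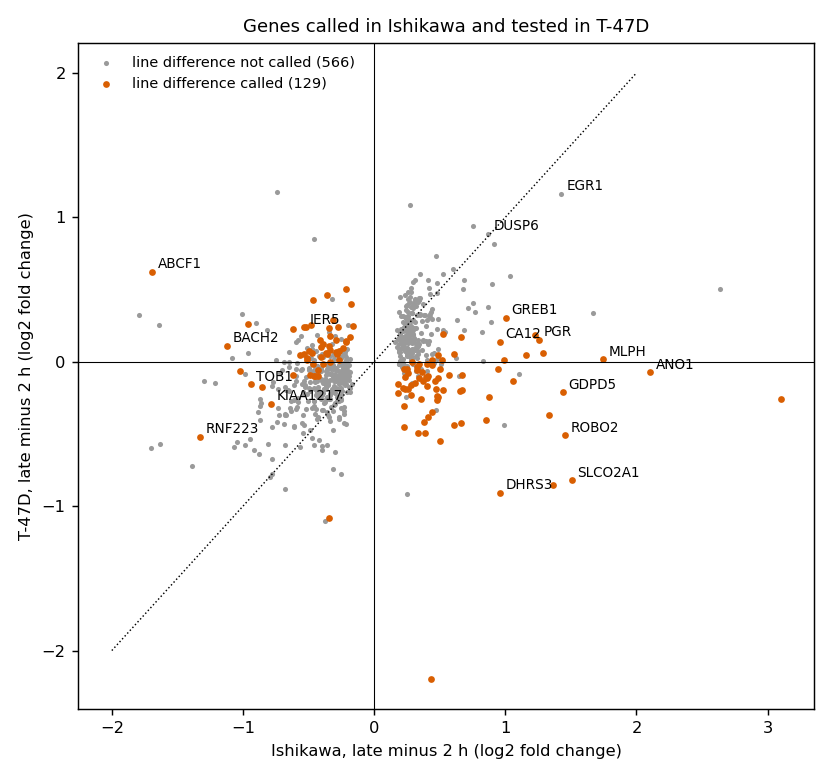
Each point is 1 of the 695 genes called late against 2 h in Ishikawa cells and tested in T-47D, with the Ishikawa log2 fold change on the x axis and the T-47D one on the y axis; the dotted line marks equal change. The 129 genes with a called difference between lines are orange, and ANO1, MLPH and GDPD5 lie near 0 in T-47D while EGR1 and DUSP6 lie near the dotted line. Over all genes 1.44% had a called difference, and the 695 were picked by their Ishikawa change, which enters the difference.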

How the data were processed

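Directional libraries were made from poly(A) RNA of Ishikawa and T-47D cells. For these libraries the authors ran HISAT2 against hg19, SAMtools, and featureCounts with UCSC Known Genes as the annotation. Values were deposited as raw counts for 26364 genes, with the libraries of each line in a table of their own. Versions, strand setting and treatment of read pairs and of multiple alignments are not given in the sources used here. Even numbers made up 71.2% to 74.6% of counts between 1 and 10, so a count need not stand for 1 fragment. The sample records give 3 days of hormone deprivation, and the methods of the study give a longer time.

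Tests used edgeR 4.0.16 in R 4.3.3: filterByExpr, TMM scaling, 1 factor with 3 levels (0 h, 2 h, late) fitted over all 8 libraries of a line with no replicate block, and the quasi-likelihood F-test with Benjamini-Hochberg adjustment over all genes tested, threshold 0.05. A standard error is the size of the log2 fold change over the root of F. The difference between lines was a contrast over 6 groups of all 16 libraries. DESeq2 1.42.0 served as an alternative. The script was tested on a single simulated data set, where unchanged genes made up a larger share of the calls than the threshold of 0.05. Whether this holds for the calls reported here was not tested, so they may hold such an excess too. Replicates differed by more than sampling noise in every pair (chi-square per gene 3.70 to 11.4).

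Genes are named as the 12 per direction with the largest change among called genes whose mean count was 50 or more and whose groups do not overlap, the 5 per direction with the lowest p, up to 4 per list with the lowest p, 6 genes used by the study, and the 5 per direction with the largest difference between lines; not all are described, and some are not reported here. Other called list members, ESR1, PAX8 and COL1A1 were named after their values were seen. The comparison, the 18 gene lists and the markers were chosen with earlier results of these data known. Comparisons of 2 h with 0 h and of late with 0 h share libraries with the main one and are given side by side. For positions, GENCODE on GRCh37 was matched by symbol or older symbol for 95.6% of the 15787 genes, and promoters were taken from RefSeq on GRCh38.p14 for 12251 of them. Counts set a precision for counting error only. Single-cell data were not analysed here.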

Additional observations from a re-analysis of the deposited data

Results flagged for a closer look

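The change from 2 h to the late libraries differed between T-47D and Ishikawa cells for 246 genes, 105 with the higher and 141 with the lower change in T-47D, by edgeR's test of the difference itself over all 16 libraries. Of 113 named genes tested for a difference between lines, 37 passed, where 1.44% of all genes did. Some of the 113 were named for a large difference between lines and others for a large Ishikawa change, which enters the difference. The count of 37 is therefore partly fixed by how the genes were chosen. Values below are the log2 fold change late against 2 h in T-47D minus that in Ishikawa cells.

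Ishikawa gains that were smaller, absent or of opposite sign in T-47D included the transporters and surface proteins ANO1 (-2.19), SLCO2A1 (-2.33), ROBO2 (-1.98), GDPD5 (-1.66), SLC6A12 (-1.71) and GRM4 (-2.23), the transport adaptor MLPH (-1.74), the retinoid enzyme DHRS3 (-1.88), TBC1D16 (-0.50) and THBS1 (-0.35). ALPP had -5.79 with a standard error of 1.25, a value that rests on near-absent counts in T-47D, where the gene did not pass the filter. DDT, a macrophage migration inhibitory factor homolog that overlaps DDTL, had -2.58, and its Ishikawa change of 1.28, which ran from 0.14 with 4 h alone to 1.89 with 8 h alone, was not called in the fit reported but was called with no filter, with 4 time levels, with 8 h alone and without 4 h replicate 2. Estrogen targets in this direction were GREB1 (-0.71), PGR (-1.11), CA12 (-0.83) and TGFA (-0.35). Signalling, metabolic and chaperone genes were SPRY1 (-0.68), ID3 (-0.72), JAG1 (-0.51), SLC7A5 (-0.51), HK2 (-0.45) and DNAJB1 (-0.32).

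Ishikawa losses that were smaller, absent or of opposite sign in T-47D were ABCF1 (2.30), BACH2 (1.22), GPT (0.94), RNF223 (0.79), TOB1 (0.77), IER5 (0.76), PPFIBP1 (0.57), TGFB2 (0.52), NRARP (0.51), KIAA1217 (0.48) and RHOB (0.39). PRKCE, a protein kinase C (1.47), NAV1, a microtubule-associated protein (1.39), and GRIK4, a glutamate receptor (1.31), rose in T-47D and were not called in Ishikawa cells. KCNQ5, a potassium channel (1.62), also rose in T-47D, and its Ishikawa change of 0.74 was called with no filter, without 4 h replicate 2 and without 8 h replicate 1 and in no other fit tried.

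Within the 4 late Ishikawa libraries, 4 of 113 named genes (3.54%) had 1 library apart from the other 3 by Dixon's criterion for the gap to the nearest library over the range of the group, where chance flags about 1 in 20. TBC1D16 was lowest in 4 h replicate 2 (0.886, with 108 CPM against 113 to 114), THBS1 highest in 8 h replicate 2 (0.901, with 715 CPM against 657 to 663), MXD4 lowest in 8 h replicate 2 (0.833, with 99.0 CPM against 103 in the others) and DNAJA1 highest in 4 h replicate 1 (0.887, with 318 CPM against 291 to 294).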

How the results depend on the processing

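Of the 764 genes called, 733 were also called by DESeq2, 755 with median-of-ratios (RLE) scaling, 744 with at least 10 counts in every library and 761 with counts divided by 2, always in the same direction. DESeq2 called 1056 genes, 558 of them higher. No filter gave 1356 genes in Ishikawa cells (600 higher, 756 lower), 1583 in T-47D (880, 703) and 442 differences between lines (211, 231). An adjusted p of 0.01 gave 295 (132, 163), 298 (176, 122) and 118 (40, 78), and of 0.1 gave 1264 (600, 664), 1607 (922, 685) and 410 (183, 227). DESeq2 called 505 differences between lines (213, 292). The 4 h libraries alone against 2 h gave 377 genes (186, 191) and the 8 h libraries alone 353 (168, 185). The cause of these differences was not tested beyond the smaller number of libraries or the changed threshold.

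Leaving out 1 library gave 131 to 983 genes in Ishikawa cells (57 to 459 higher, 74 to 549 lower), 153 to 1305 in T-47D (80 to 754, 62 to 551) and 96 to 306 differences between lines (29 to 140, 64 to 166). The lowest values came without a 2 h library, where 1 library stands for 2 h and its spread is taken from the other groups. Differences between lines numbered 104 and 96 without Ishikawa 2 h replicate 1 or 2, and 108 and 98 without the T-47D ones. Called members ranged from 2 to 10 (higher) and 2 to 4 (lower) in the immediate-early list, 3 to 6 in MAP kinase feedback, 5 to 13 in estrogen targets, 0 to 18 in ribosome biogenesis, 1 to 8 (higher) and 0 to 1 (lower) in heat shock, 0 to 1 (higher) and 3 to 6 (lower) in the antiproliferative list and 1 to 6 in ATF4 and amino acid genes. Medians ranged from 0.16 to 0.29 for estrogen targets, 0.028 to 0.069 for G1/S regulators, 0.010 to 0.042 for cholesterol and fatty acid synthesis, 0.014 to 0.10 for the circadian clock, -0.19 to -0.028 for interferon-stimulated genes, 0.076 to 0.14 for NF-κB targets, -0.11 to -0.053 for the antiproliferative list, 0.046 to 0.23 for BMP and TGF-β targets and -0.058 to 0.056 for Notch and WNT, the last reversing without 2 h replicate 1.

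With the 4 h libraries alone, medians were 0.27 for estrogen targets, -0.14 for the antiproliferative list, 0.048 for the circadian clock and -0.10 for NF-κB targets, whose sign turned, and called members were 5 (immediate-early, higher), 9 (ribosome biogenesis), 4 (heat shock) and 0 (antiproliferative, higher). With the 8 h libraries alone, medians were 0.071 for G1/S regulators and -0.042 for the antiproliferative list, and called members were 2 (immediate-early, lower), 5 (ribosome biogenesis), 2 (heat shock) and 0 (antiproliferative, higher). Ishikawa changes near 0 turned sign for PRKCE (-0.10 to 0.012 over the libraries left out, above 0 without 8 h replicate 1), NAV1 (-0.16 to 0.010, above 0 without 4 h replicate 1) and GRIK4 (0.033 with 8 h alone and -0.12 to 0.052 over the libraries left out, above 0 without 2 h replicate 1 or 4 h replicate 1).

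Same-numbered replicates did not deviate together in Ishikawa cells (correlations over genes from -0.11 to 0.05 for the 6 pairs of time points). No pairing by number was seen, and values near 0 cannot exclude one. With the replicate number as a block, 718 genes were called (325 higher, 393 lower), 683 of them among the 764, with 733 in T-47D and 189 differences between lines. Depths were 41177912 to 64148903 counts, and genes with few counts at these depths were left to the filter.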
